A study of Mus musculus with 6 samples.

Results

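Calmodulin and the enzymes it switches on were measured as messenger RNA in hearts of mice whose cardiac troponin I (cTnI) carries R193H and in wild type hearts. The genes were chosen by symbol: Calm2 and Calm3 (calmodulin), Camk2d, Camk2g and Camk2a (CaM kinase II), Ppp3ca and Ppp3cb (the catalytic subunit of calcineurin), Rcan1 (a calcineurin regulator) and S100a1 (a calcium sensor of heart muscle). All 9 were among the 44792 gene symbols of the deposited count table. Hearts of 3 R193H mice were set against hearts of 3 wild type mice, all of strain C57BL/6, aged 3 months and untreated. Each heart gave 1 RNA-seq library of whole tissue. The labels give neither the way the mutation was made nor the number of mutant alleles. Libraries held 19582600 to 21852210 counts in R193H hearts and 14736067 to 20652534 counts in wild type hearts. All 8 ventricular cardiomyocyte markers had counts in these hearts, and of 7 skeletal muscle markers Myh4 was at 0. Since whole tissue was sequenced, fewer cells of a type and less RNA per cell cannot be told apart.

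Calcium that enters the cytosol at each heartbeat binds calmodulin, a small protein with EF-hand calcium-binding loops. Calcium-loaded calmodulin activates CaM kinase II, which phosphorylates calcium channels, the ryanodine receptor and phospholamban. It also activates calcineurin, a phosphatase that strips phosphate from NFAT transcription factors so that they enter the nucleus. In heart muscle both enzymes are known for their part in hypertrophic growth, and Rcan1 is a classical NFAT target whose protein binds and restrains calcineurin. S100a1 is an EF-hand protein of another family that is abundant in cardiomyocytes and acts on the ryanodine receptor and the calcium pump. CaM kinase II delta, from Camk2d, is usually described as the main cardiac form, gamma as widespread and alpha as neuronal.

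None of the 8 genes that could be tested passed the threshold between the genotypes (adjusted p under 0.05), and their fitted folds ran from 0.910 to 1.10. The calmodulin messages had higher means in R193H hearts, and the kinase, phosphatase and Rcan1 messages had lower means. The mean of S100a1 was nearly level. The test resolved none of these differences from the spread between hearts. Camk2a was listed at 0 in all 6 hearts and was not tested.

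Calm2 and Calm3 encode the same protein from other bases. They differed at 78 of 450 coding bases and at 0 amino acids, and their longest identical stretch was 17 bases, so a longer read from the coding sequence holds at least 1 base that differs. The coding bases of the first calcium-binding loop, positions 61 to 96 counted from the A of the start codon, show this. They are taken from GENCODE M21 transcripts on GRCm38, with the 7 bases that differ between the genes in capitals:
Calm2: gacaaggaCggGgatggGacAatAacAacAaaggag
Calm3: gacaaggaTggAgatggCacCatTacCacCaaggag
Processed pseudogenes are the nearer source of shared reads. Of all 50-base stretches in Calm2 transcripts, 12.2% were also found in transcripts of other genes, all of them processed pseudogenes. The matching share was 2.71% in Calm3. It was 0% in Camk2d, Camk2g, Ppp3ca, Ppp3cb, Rcan1 and S100a1. How the authors counted reads that match several places is not given in the sources used here, so the level of Calm2 is uncertain. Gm7308, the pseudogene that shared the most with Calm2, had at most 24 counts in any heart. Gapdh, which has many pseudogenes, had between 82 and 2004 counts per heart in this table. What these counts mean for the level of Calm2 was not tested.

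Rcan1 starts at more than 1 promoter, and the gene count does not tell the resulting messages apart. RefSeq on GRCm38.p6 gives a window for 5 of the 9 genes, with 2 windows for Rcan1. Each holds 250 bases before and 50 bases after a start site. They are shown because the inner promoter is the one known to answer to calcineurin and NFAT. The core letters of an NFAT site, GGAAA, were searched on both strands, and matches are in capitals. The outer window lies at chr16:92466120-92466419 and the inner one at chr16:92400029-92400328, both on the minus strand and written 5′ to 3′:
Rcan1, outer: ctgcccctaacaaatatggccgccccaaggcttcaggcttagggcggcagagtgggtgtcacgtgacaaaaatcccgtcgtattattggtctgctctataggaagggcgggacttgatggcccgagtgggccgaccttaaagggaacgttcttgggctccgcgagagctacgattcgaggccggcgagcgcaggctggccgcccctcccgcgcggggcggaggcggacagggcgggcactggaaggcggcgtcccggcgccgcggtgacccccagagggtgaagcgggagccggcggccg
Rcan1, inner: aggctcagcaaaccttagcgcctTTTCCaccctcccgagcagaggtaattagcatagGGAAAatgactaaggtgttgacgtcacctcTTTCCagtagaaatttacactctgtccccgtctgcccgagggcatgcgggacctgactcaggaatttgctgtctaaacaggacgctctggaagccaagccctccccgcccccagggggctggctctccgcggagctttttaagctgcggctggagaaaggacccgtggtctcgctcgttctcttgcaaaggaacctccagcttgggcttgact
The outer window held 0 matches and the inner one 3. Among the other windows Ppp3cb held 4, S100a1 held 3, and Camk2d and Calm3 held 1 each, so the inner window of Rcan1 does not stand apart from these genes. Of 32851 promoter windows, 61.3% held at least 1 match and 9.42% at least 3, and 2.65% held at least 4. The inner start site lies inside 4 protein-coding transcripts of Rcan1 in GENCODE M21.

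Levels of different genes were compared per length, as CPM (the count scaled to library size) divided by kilobases of merged protein-coding exons. S100a1 was far above the others, at 564 ± 101 CPM per kb in R193H hearts and 549.4 ± 51.8 CPM per kb in wild type hearts (SD, n = 3 each). Calm2 followed, with 80.8 ± 11.1 CPM per kb in R193H hearts and 73.7 ± 2.27 CPM per kb in wild type hearts. Calm3 had 62.7 ± 1.88 CPM per kb in R193H hearts and 59.0 ± 1.94 CPM per kb in wild type hearts. Calmodulin message was thus several times more abundant per length than that of either enzyme. Rcan1 came next, at 18.8 ± 1.95 CPM per kb in R193H hearts and 19.5 ± 1.12 CPM per kb in wild type hearts. Camk2g, Ppp3cb and Ppp3ca followed, at 13.6, 13.4 and 10.8 CPM per kb on average in R193H hearts and at 14.9, 13.6 and 11.7 CPM per kb in wild type hearts. Over the 6 hearts Camk2g and Ppp3cb overlapped, with ranges of 13.3 to 16.8 and 13.02 to 14.4 CPM per kb, so their order is not resolved. Camk2d was lowest of the genes with counts, at 2.08 ± 0.105 CPM per kb in R193H hearts and 2.29 ± 0.138 CPM per kb in wild type hearts. The order of mean levels was the same in both genotypes. Divided by the longest transcript in place of merged exons, Camk2d stood at 3.21 CPM per kb in R193H hearts and 3.53 CPM per kb in wild type hearts, still below Camk2g at 14.2 and 15.6 CPM per kb. In this count table Camk2d thus stood below Camk2g, unlike the usual description of Camk2d as the leading cardiac form. Low counts here do not by themselves show a low level of a transcript. Tbx5, a transcription factor of heart muscle chosen after its value was seen, was listed at 0 in all 6 hearts. Why Camk2d stood low was not tested.

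**Figure D1:**
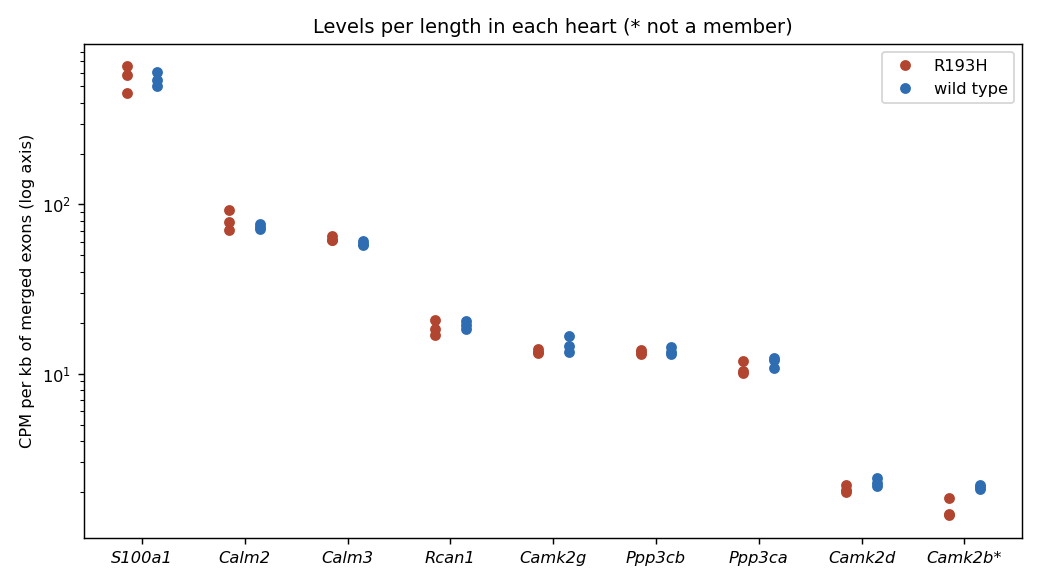
Levels per length in each heart (log axis, CPM per kb of merged exons), in order of the wild type mean, with R193H hearts left of wild type hearts and 1 point per heart. S100a1 lies above 454 CPM per kb in every heart and Camk2d between 2.002 and 2.43 CPM per kb; Camk2b, marked with an asterisk, was not among the 9 genes.

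The calmodulin genes had slightly higher means in R193H hearts. Calm2 (ENSMUSG00000036438.13, GRCm38 chromosome 17, 87433412 to 87446935) measured 95.01, 111.9 and 85.4 CPM in R193H replicates 1, 2 and 3, against 91.8, 86.5 and 88.1 CPM in wild type replicates 1, 2 and 3. R193H replicate 2 was the highest heart and R193H replicate 3 the lowest, so the R193H group spanned the whole wild type range. For Calm2, edgeR gave a log2 fold change of 0.13 (R193H over wild type, as throughout; SE 0.10, adjusted p = 0.900), and it ranged from 0.025 without R193H replicate 2 to 0.23 without R193H replicate 3 (unadjusted p = 0.042 there). Calm3 (ENSMUSG00000019370.10, chromosome 7, 16915379 to 16924114) measured 140.9, 148.5 and 141.2 CPM in R193H hearts, against 139.998, 131.3 and 134.2 CPM in wild type hearts. The lowest R193H value lay above the highest wild type value, although R193H replicate 1 exceeded wild type replicate 1 by less than 1 CPM. Calm3 was the 1 gene of the 8 whose ranges did not overlap, where 11.8% of all genes tested had such ranges, 6.02% with R193H higher and 5.8% with R193H lower. For Calm3 the log2 fold change was 0.087 (SE 0.074, adjusted p = 0.902), and the 95% interval of the fold ran from 0.947 to 1.19. Calm2 and Calm3 were higher under all 15 alternatives of scaling, filter, test and hearts left out, and reached 0.27 and 0.22 under library totals (unadjusted p = 0.065 and 0.032), where the median of all genes moved to 0.13.

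CaM kinase II messages had slightly lower means. Camk2d (ENSMUSG00000053819.16, chromosome 3, 126596302 to 126846326) measured 17.4, 17.1 and 18.8 CPM in R193H hearts, against 20.7, 19.3 and 18.4 CPM in wild type hearts. R193H replicate 3 lay above wild type replicate 3, so the groups overlapped by 1 heart each. For Camk2d the log2 fold change was -0.13 (SE 0.097, adjusted p = 0.8997). Camk2g (ENSMUSG00000021820.18, chromosome 14, 20734875 to 20794088) measured 51.5, 52.2 and 54.3 CPM in R193H hearts, against 56.2, 65.1 and 52.4 CPM in wild type hearts. The wild type hearts varied more than the R193H hearts, with wild type replicate 2 the highest and wild type replicate 3 within the R193H range. The log2 fold change of Camk2g was -0.14 (SE 0.093, adjusted p = 0.8997), and it ranged from -0.044 without wild type replicate 2 to -0.20 without wild type replicate 3. When libraries were scaled by their totals alone, both kinase genes stood near 0, at -0.0068 for Camk2d and -0.0082 for Camk2g.

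Camk2a (ENSMUSG00000024617.16, chromosome 18, 60925618 to 60988152) had 0 counts in every heart. At these depths a count of 0 allows up to 0.135 to 0.140 CPM in R193H hearts and 0.150 to 0.213 CPM in wild type hearts (3 counts, counting error only). Tbx5, a transcription factor of heart muscle, and Nckap1l, a gene of blood cells, were also listed at 0 in all 6 hearts. They were chosen after their values were seen. A 0 in this table therefore does not by itself show that a transcript was absent. Summed neuron markers were low, at 13.5 to 18.1 CPM in R193H hearts and 13.7 to 14.7 CPM in wild type hearts.

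**Figure D2:**
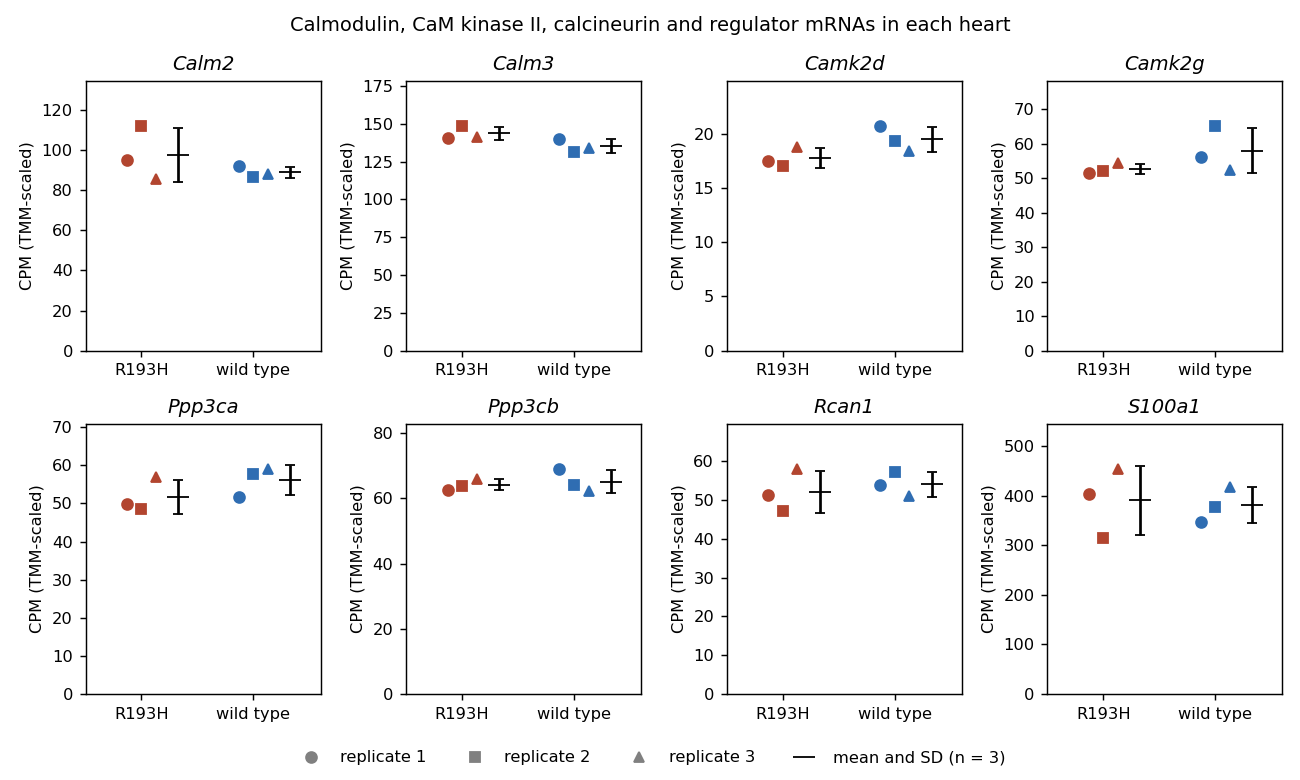
CPM (library totals adjusted by TMM) of the 8 genes with counts, R193H left and wild type right, with 1 symbol per replicate and the mean and SD beside them (n = 3 each). R193H and wild type hearts overlap in every panel except that of Calm3, and R193H replicate 2 (square) is highest for Calm2 and lowest for S100a1.

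The catalytic subunits of calcineurin had lower means in R193H hearts, and neither difference passed the test. Ppp3ca (ENSMUSG00000028161.17, chromosome 3, 136670124 to 136937727), which encodes the alpha form, measured 49.8, 48.5 and 56.9 CPM in R193H hearts, against 51.6, 57.8 and 59.0 CPM in wild type hearts. R193H replicate 3 lay above wild type replicate 1 and below the other wild type hearts. The log2 fold change of Ppp3ca was -0.12 (SE 0.092, adjusted p = 0.900), and it turned to 0.0049 under scaling by library totals. Ppp3cb (ENSMUSG00000021816.11, chromosome 14, 20499364 to 20546573), which encodes the beta form, measured 62.5, 64.0 and 65.9 CPM in R193H hearts, against 69.0, 64.1 and 62.3 CPM in wild type hearts. The values of the groups were interleaved. For Ppp3cb the log2 fold change was -0.021 (SE 0.076, adjusted p = 0.981), and it turned to 0.11 under library totals and to 0.020 without wild type replicate 1. Its coefficient of variation in R193H hearts, 2.62%, was the lowest of the 8 genes, and the 95% interval of its fold ran from 0.876 to 1.11.

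Rcan1 (ENSMUSG00000022951.16, chromosome 16, 92391953 to 92470867), the regulator that NFAT induces, measured 51.3, 47.3 and 58.0 CPM in R193H hearts, against 54.0, 57.2 and 50.9 CPM in wild type hearts. The highest and the lowest of the 6 values both came from R193H hearts. Rcan1 had a log2 fold change of -0.050 (SE 0.094, adjusted p = 0.953), and its direction turned to 0.073 under library totals and to 0.018 without R193H replicate 2. The 95% interval of the fold ran from 0.835 to 1.12. The count joins messages from both promoters shown above, so a shift between them would not be seen here.

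S100a1 (ENSMUSG00000044080.9, chromosome 3, 90511034 to 90514392) measured 404, 315 and 454 CPM in R193H hearts, against 347, 378 and 419 CPM in wild type hearts. R193H replicate 2 was the lowest heart and R193H replicate 3 the highest, and the coefficient of variation was 18.0% in R193H hearts and 9.43% in wild type hearts. The log2 fold change of S100a1 was 0.036 (SE 0.13, adjusted p = 0.981). Leaving out R193H replicate 3 gave -0.077, leaving out R193H replicate 2 gave 0.17 and leaving out wild type replicate 1 gave -0.029. R193H replicate 2 also had the lowest summed level of 8 ventricular cardiomyocyte markers, at 39116 CPM, and the highest of 7 fibroblast markers, at 1906 CPM. The other R193H hearts had 41815 and 43680 CPM of the ventricular markers and 1239 and 1307 CPM of the fibroblast markers. The wild type hearts had 44073 to 46422 CPM and 1168 to 1382 CPM. Mitochondrially encoded genes took 30.9% of its counts, against 35.2% and 35.4% in the other R193H hearts and 36.7% to 36.8% in wild type hearts. The part of these differences in the values of S100a1 and Calm2 was not tested.

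Read together, 0 of the 8 genes tested passed the edgeR threshold in either direction, and 0 had an unadjusted p under 0.05. Over all 14370 genes the threshold was passed by 1 gene (0.00696%), and 5.73% had an unadjusted p under 0.05. DESeq2 called 42 genes (0.292%) and 0 of the 8. Adjusted p of the 8 ran from 0.8997 to 0.981 and their log2 fold changes from -0.14 to 0.13, with 3 higher and 5 lower means and a median of -0.036. The median over all genes tested was -0.00036. Scaling by library totals moved the median of all genes to 0.13 and that of the 8 genes to 0.089, where 6 had higher means. Under TMM and under library totals alike, 3 of the 8 lay above the median of all genes.

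**Figure D3:**
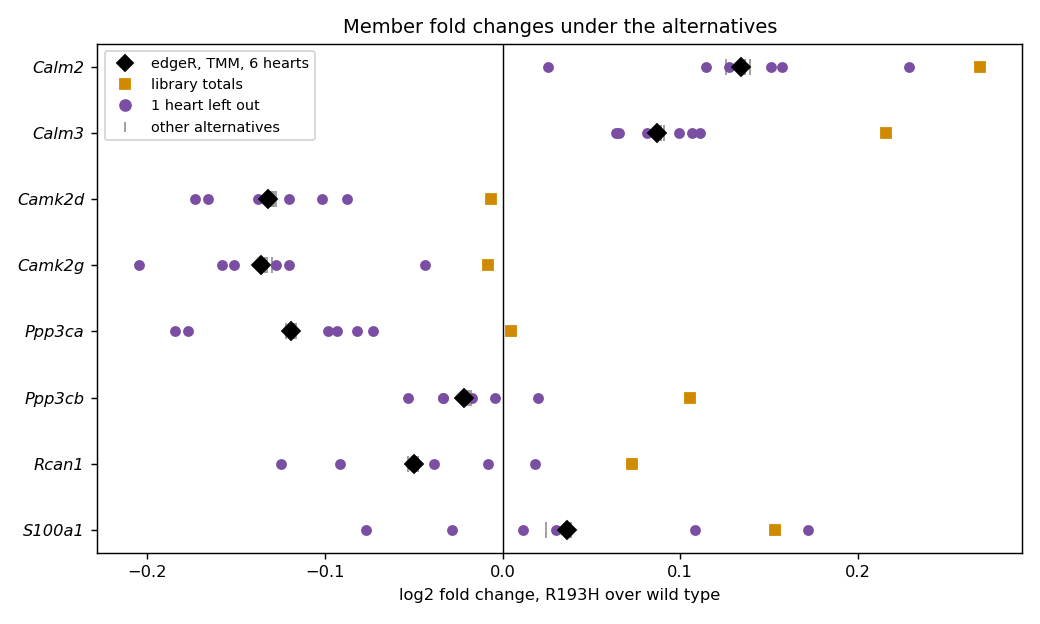
Log2 fold change (R193H over wild type) of each gene with all 6 hearts (diamond), under library totals (square), with 1 heart left out (circles) and under the other alternatives (bars). Calm2 and Calm3 lie right of 0 and Camk2d and Camk2g left of 0 throughout, while Ppp3ca, Ppp3cb, Rcan1 and S100a1 lie on both sides.

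Ratios within a heart do not depend on how libraries are scaled, and 4 were compared between the genotypes by an exact two-sided permutation test over hearts, whose smallest possible p is 0.1. Camk2d was set against the summed counts of Camk2d, Camk2g and Camk2a, which leaves out Camk2b, the beta form. Its share was 25.3%, 24.6% and 25.7% in R193H hearts, against 26.9%, 22.9% and 26.0% in wild type hearts. The means of 25.2% ± 0.524 and 25.3% ± 2.11 (SD, n = 3 each) lay close together (exact permutation p = 1.0), and the difference ranged from -1.25 to 0.77 percentage points with 1 heart left out. Ppp3ca took 44.3%, 43.1% and 46.3% of the calcineurin catalytic counts in R193H hearts, against 42.8%, 47.4% and 48.6% in wild type hearts (difference of means -1.69 percentage points, exact permutation p = 0.5). The log2 ratio of Rcan1 to the sum of Ppp3ca and Ppp3cb was -1.13, -1.25 and -1.08 in R193H hearts, against -1.16, -1.09 and -1.25 in wild type hearts (exact permutation p = 0.7). After Benjamini-Hochberg adjustment over the 4 ratios the exact permutation p was 1.0 for Camk2d and 0.933 for each of the others. Divided by the length of merged exons, Camk2d made up 13.3% of the message of Camk2d, Camk2g and Camk2a in R193H hearts and 13.4% in wild type hearts. These percentages depend on the length chosen. Merged exons and longest transcript measured 8.524 and 5.524 kb for Camk2d, and 3.88 and 3.703 kb for Camk2g. A share by longest transcript was not computed. Camk2b, left out of the Camk2d share, had 1.59 CPM per kb in R193H hearts and 2.14 CPM per kb in wild type hearts. These levels are near those of Camk2d, and a share that includes Camk2b was not computed.

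The share of Calm2 among Calm2 and Calm3 counts had nearly the same mean in both genotypes, with R193H values further apart than wild type values. It was 40.3%, 43.0% and 37.7% in R193H hearts, against 39.6%, 39.7% and 39.6% in wild type hearts. The means were 40.3% ± 2.64 in R193H hearts and 39.6% ± 0.0589 in wild type hearts (SD, n = 3 each; exact permutation p = 0.7). The 95% Wilson intervals, which cover counting error only, were 41.7% to 44.3% in R193H replicate 2 and 36.3% to 39.1% in R193H replicate 3. In wild type replicates 1, 2 and 3 they were 37.9% to 41.3%, 38.1% to 41.3% and 38.2% to 41.1%. The 3 wild type values thus lay closer together than counting error alone would place them, so their SD is no measure of the spread between wild type hearts. Hearts are separate animals, so counting error is not the whole of their expected spread. Whether the spread differs between the genotypes was not tested.

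**Figure D4:**
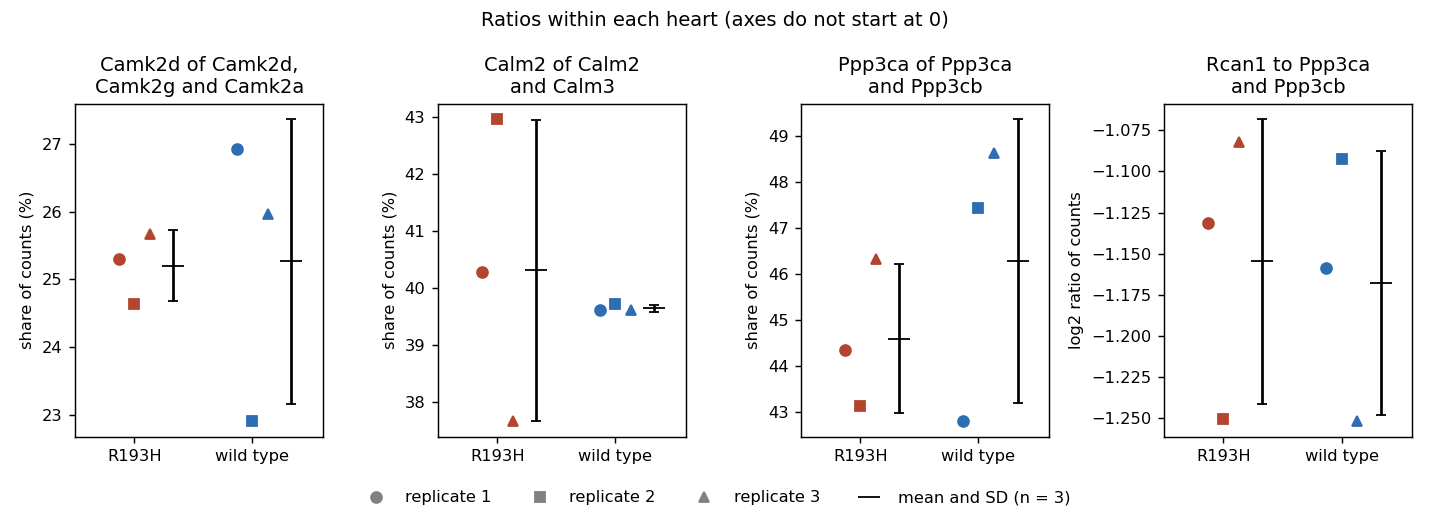
Ratios of counts within each heart, R193H left and wild type right, with 1 symbol per replicate and the mean and SD beside them (n = 3 each; the axes do not start at 0). The genotypes overlap in every panel, and the wild type hearts lie together at 39.6% to 39.7% for Calm2 where the R193H hearts spread from 37.7% to 43.0%. The wild type values lie closer together than counting error alone would place them.

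Genes that act with these were followed in 6 lists holding 79 further genes, of which 65 could be tested. None passed the threshold in edgeR in either direction, and none in DESeq2. At an unadjusted p under 0.05 in edgeR, 1 was higher and 4 were lower. Of all 14370 genes, 463 were higher and 361 lower at such a p, 5.73% together. Ranges did not overlap for 3 genes with R193H higher and 6 with R193H lower, where 6.02% and 5.8% of all genes had such ranges. Means were lower for 42 of the 65, with a median log2 fold change of -0.087. Of all 14370 genes, 7196 had lower means, the background for the single lists below as well. Under library totals 25 of 65 had lower means, with a median of 0.035, but 42 of 65 still lay below the median of all genes, which that scaling moved to 0.13. The counts under library totals given for single lists carry the same shift.

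Marcks, a membrane protein that holds calmodulin until it is phosphorylated, measured 46.0, 57.4 and 55.9 CPM in R193H hearts, against 44.5, 41.3 and 40.7 CPM in wild type hearts. The groups did not overlap, and its log2 fold change was 0.33 (SE 0.099, adjusted p = 0.722). Its relative Marcksl1 stood at 0.25 (SE 0.17). Nrgn, a calmodulin-binding protein of neurons and platelets, stood at -1.59 (SE 0.95), with 8.94 CPM in wild type replicate 1 and 0.49 to 1.90 CPM in the other 5 hearts. In this list of calmodulin-binding and related genes, 3 of 6 tested had higher and 3 lower means.

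In the list of other calmodulin-dependent kinases and CaM kinase II inhibitors, 11 of 16 tested had lower means, and 8 under library totals. Camk2b, the beta form of CaM kinase II, measured 8.18, 6.54 and 6.43 CPM in R193H hearts, against 9.79, 9.15 and 9.52 CPM in wild type hearts. The groups did not overlap, and its log2 fold change of -0.43 (SE 0.14) had an adjusted p of 0.722. Mylk3, the cardiac myosin light chain kinase, measured 425, 325 and 510.1 CPM in R193H hearts, against 510.7, 637 and 517 CPM in wild type hearts, with R193H replicate 3 just below the lowest wild type heart. Mylk3 had a log2 fold change of -0.40 (SE 0.16, adjusted p = 0.843). Camkk2, which phosphorylates CaM kinases I and IV and AMP kinase, and the death-associated kinase Dapk2 stood at 0.25 (SE 0.12) and 0.30 (SE 0.18). The ranges of Camkk2 did not overlap either, with 13.8, 13.999 and 11.502 CPM in R193H hearts, against 11.424, 11.395 and 10.3 CPM in wild type hearts. The summed ventricular markers, given above, did not overlap between the genotypes either, and their part in the Camk2b and Mylk3 values was not tested.

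The calcineurin list had 7 lower means among 13 tested, and 4 under library totals. Rcan2, the sister of Rcan1, had 400.1 ± 41.6 CPM in R193H hearts and 435.9 ± 18.8 CPM in wild type hearts (SD, n = 3 each), a log2 fold change of -0.12 (SE 0.095). Myoz2 (calsarcin-1), which tethers calcineurin to the Z-disc and restrains it, stood at -0.24 (SE 0.15), with 437 CPM in R193H replicate 2 and 628 to 717 CPM in the other 5 hearts. The calcineurin-like proteins Chp1 and Chp2 stood at -0.29 (SE 0.15) and 0.43 (SE 0.26).

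The list of NFAT factors, NFAT kinases and TRPC channels had lower means for 11 of 12 genes tested, and for 8 of 12 under library totals. Nfatc3 and Nfatc1, transcription factors that calcineurin releases to the nucleus, stood at -0.14 (SE 0.082) and -0.14 (SE 0.088). Dyrk2 and Dyrk1a, kinases that phosphorylate NFAT and so oppose calcineurin, stood at -0.22 (SE 0.082, adjusted p = 0.781) and -0.14 (SE 0.088). The ranges of Dyrk2 and Nfatc3 did not overlap between the genotypes, where 5.8% of all genes tested had such ranges with R193H lower. Factors and opposing kinases thus had lower means side by side, with none past the threshold.

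CaM kinase II substrates and MEF2 factors had lower means for 8 of 10 genes tested, and for 2 of 10 under library totals, where 8 of 10 still lay below the shifted median of all genes. Cacna1c, the pore of the L-type calcium channel, measured 154.0, 179.8 and 153.7 CPM in R193H hearts, against 184.7, 212 and 192 CPM in wild type hearts, with no overlap. Its log2 fold change was -0.27 (SE 0.094, adjusted p = 0.736). The ryanodine receptor Ryr2 stood at -0.20 (SE 0.098) and the histone deacetylase Hdac4 at -0.11 (SE 0.12). The ranges of Ryr2 did not overlap either, and those of Hdac4 did. Other S100 genes had higher means for 6 of 8 tested, and for 7 under library totals. S100a6, S100a13 and S100a16 stood at 0.39 (SE 0.19), 0.22 (SE 0.12) and 0.18 (SE 0.11), and S100a9, a neutrophil gene, at -1.51 (SE 0.99). Among these only the ranges of S100a13 did not overlap, with R193H higher. S100a9 measured 0.944, 0.915 and 1.54 CPM in R193H hearts, against 6.95, 0.242 and 2.65 CPM in wild type hearts. Summed levels of 5 erythroid markers were 476, 629.8 and 566 CPM in R193H hearts, against 3094, 257 and 2973 CPM in wild type hearts, and their part in the S100a9 and Nrgn values was not tested. Summed macrophage markers were higher in all R193H hearts, at 189.95 to 261 CPM, against 147 to 172 CPM in wild type hearts, and their part in the S100 and Marcks values was not tested.

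**Figure D5:**
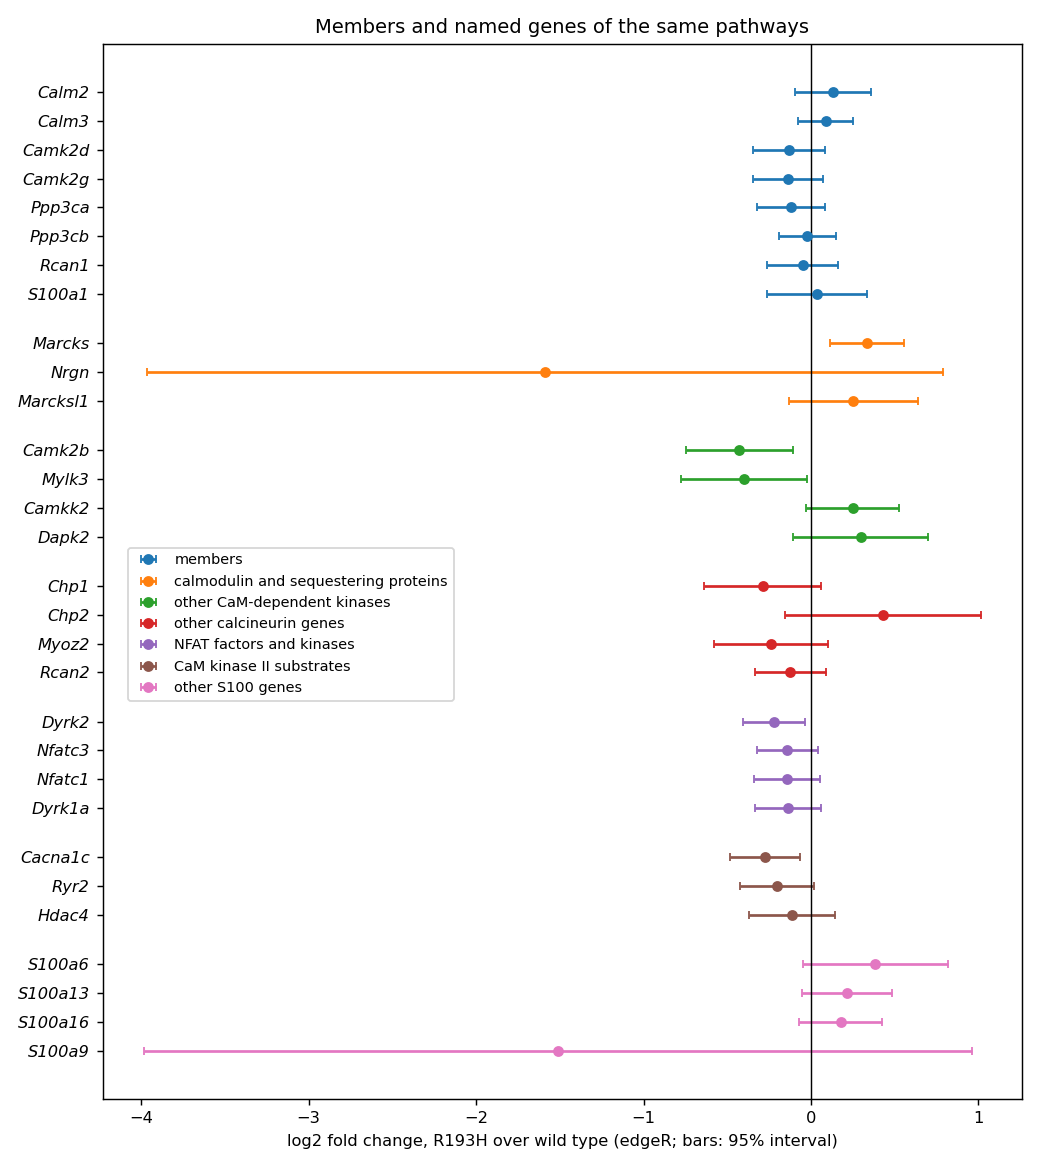
Log2 fold change (R193H over wild type, edgeR) with its 95% interval for the 8 genes tested and the named genes of smallest p in each of the 6 pathway lists. The intervals of all 8 include 0; those of Marcks, Camk2b, Mylk3, Dyrk2 and Cacna1c do not before adjustment for 14370 genes, and those of Nrgn and S100a9 are the widest.

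The genes whose log2 CPM tracked Rcan1 most closely over the 6 hearts were Sun1, Canx and Gsto1 (Pearson r = 0.989, 0.987 and 0.987), a nuclear envelope protein, a chaperone of the endoplasmic reticulum and a glutathione transferase. For Calm2 they were Flrt2, Prcp and Rab3il1 (r = 0.987, 0.984 and 0.982), and for Camk2d they were Naa60, Msl1 and Ubqln1 (r = 0.992, 0.985 and 0.979). These are the highest of 7615 correlations each, over 6 points that share libraries and scaling, and are given as a description only.

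Tnni3, the gene of cTnI, had 3900.2, 3641 and 3703 CPM in R193H hearts, against 3202, 3466 and 3282 CPM in wild type hearts (log2 fold change 0.18, SE 0.080, adjusted p = 0.863). Counts per gene do not show the substitution itself.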

How the data were processed

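Total RNA of whole hearts was extracted with Trizol and sequenced from standard Illumina libraries, per the labels' protocols. The authors deposited 1 table of raw read counts per gene symbol, and its columns were matched to hearts by sample title. HISAT2 2.0.4 and the build GRCm38 are named in the submitters' processing notes. The program that counted reads, its handling of multiply matching reads and its strand setting were not given in the sources used here. Replicate numbers follow the order of listing and pair no hearts. The design text calls the hearts biological repeats.

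The tests used edgeR 4.0.16 under R 4.3.3. Of the deposited counts, filterByExpr kept 14370 genes. Libraries were scaled by TMM, and genotypes were compared by a quasi-likelihood F-test (robust option) with Benjamini-Hochberg adjustment over all genes tested (threshold 0.05). The common biological coefficient of variation between hearts, 1 value for all genes tested, was 15.8%. The SE of each gene came from its own quasi-likelihood fit and not from this value alone. Named pathway genes were the 4 of smallest p in each of the 6 lists; some of these are not reported here, though list counts include them. Genes most like a member needed a mean CPM of at least 10. Members and lists were chosen with earlier results of these data known. Positions and lengths come from GENCODE M21. Marker Adgre1 was read under its older symbol Emr1. Scripts were tested on simulated data. Alternatives were other scalings and filters, DESeq2 1.42.0, limma-voom (limma 3.58.1), a non-robust fit and each heart left out.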

Additional observations from a re-analysis of the deposited data

How the results depend on the processing

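None of the 8 members and none of the 65 pathway genes passed the threshold under any of the 15 alternatives, where the lowest adjusted p of a member was 0.481 (Calm3, library totals). The number of genes past it was 1 with edgeR, 0 without mitochondrial genes, 42 with DESeq2, 38 with no filter and 3 to 21 with 1 heart left out (21 without R193H replicate 3). The median of the 8 genes of -0.036 moved to 0.089 under library totals and ranged from -0.10 to 0.00056 with 1 heart left out. Directions turned under library totals for Ppp3ca (0.0049), Ppp3cb (0.11) and Rcan1 (0.073). They also turned without R193H replicate 2 for Rcan1 (0.018), without R193H replicate 3 for S100a1 (-0.077), and without wild type replicate 1 for Ppp3cb (0.020) and S100a1 (-0.029). With 1 heart left out, the difference in the Camk2d share ranged from -1.25 to 0.77 percentage points, that in the Calm2 share from -0.67 to 1.97, that in the Ppp3ca share from -3.44 to -0.52, and that in the log2 ratio of Rcan1 to calcineurin from -0.029 to 0.061. Over the hearts left out, Ppp3cb ranged from -0.053 to 0.020, Rcan1 from -0.12 to 0.018 and S100a1 from -0.077 to 0.17. The turns under library totals came with the move of the median of all genes from -0.00036 to 0.13. TMM factors were 1.001 to 1.118 in R193H hearts and 0.947 to 0.968 in wild type hearts. The cause of the turns with 1 heart left out was not tested. No paired analysis was possible because the labels give no shared replicate numbers. Camk2a had 0 counts, and whether depth or the counting itself accounts for that was not tested.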

Other observations

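The summed counts of Calm2 and Calm3 were set against those of Camk2d, Camk2g, Ppp3ca and Ppp3cb in each heart, a ratio chosen after the values were seen and therefore given without a test. Its log2 was 0.38, 0.52 and 0.21 in R193H hearts, against 0.23, 0.078 and 0.21 in wild type hearts. R193H replicate 2 was highest and wild type replicate 2 lowest, and the groups overlapped. This ratio does not depend on the scaling of libraries.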
